A study of Mus musculus with 3 samples.

Results

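The genes of bone and cartilage described here are Runx2, Runx3, Sp7, Alpl, Ibsp, Spp1, Acan, Matn1, Hapln1 and Pthlh, 10 genes taken by name and measured in the genital tubercle of mouse embryos. Every probe set that the platform annotation gives to exactly 1 of these symbols was taken, which gave 12 probe sets of 45037, for 7 of the 10 genes. Runx3, Sp7, Alpl, Ibsp, Acan, Matn1 and Hapln1 were measured, while Runx2, Spp1 and Pthlh had no probe set named to them alone and were not analysed here. The genital tubercle is the embryonic outgrowth that becomes the penis or the clitoris. Its RNA was taken from 3 embryos at embryonic day 14 and Theiler stage 22, 1 array per embryo, after dissection guided by a yellow fluorescent reporter named for Acta2 (smooth muscle actin). All 3 embryos came from FVB/N mothers and fathers carrying that reporter, all carry the label male, none was treated or pooled, and there is no control group. The 1 label that differs is the limb landmark, with visible fingers in replicate 3 and indented footplates in replicates 1 and 2. A shared litter or batch is not recorded, so the spread between samples may be partly technical.

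The mouse penis later forms a bone, the baculum, from mesenchyme, and none has formed at this stage. Elsewhere in the skeleton cells reach bone by way of Runx2 and then Sp7, transcription factors of the osteoblast, which are followed by Alpl, an enzyme that clears a mineralization inhibitor, and by secreted bone proteins such as Ibsp and Spp1. Cartilage instead lays down Acan (aggrecan) bound to hyaluronan through the link protein Hapln1, together with Matn1 (matrilin), while the secreted hormone Pthlh keeps growth plate chondrocytes from maturing. In this tissue no cell type was sorted, so fewer cells of a type and less RNA per cell cannot be told apart.

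A signal is the deposited linear intensity of a probe set, and a sample's background was set at the 95th percentile of its 81 probe sets for smell and taste receptors, genes used in sensory epithelia. That level was 135.8, 253 and 197 signal units in replicates 1, 2 and 3. Signals of different probe sets depend on their probes, so the levels of different genes are not ranked. Of 6 listed tubercle genes 5 were above background in 3 of 3 samples, beside 60.5% of all genes. Among them were Isl1 (48464 ± 4187 signal units), Hoxd13 (40748 ± 2303) and Shh (13844 ± 2186, SD, n = 3). Hoxd13 and Shh each rested on 1 of 2 probe sets. The other gene, Hoxa13, read 146, 250 and 170 in replicates 1, 2 and 3 and exceeded background in replicate 1 alone. That list was added after the data were seen, so it is no independent check of the tissue label. The male label was not borne out in replicate 3, where the X inactivation RNA Xist read 61883, against 8.05 and 118 in replicates 1 and 2, and the Y-linked gene Eif2s3y read 37.9, against 4384 and 3738. Replicate 3 is therefore the library labelled male whose sex-linked genes go against that label. The counts of members and of skeletal list genes above background are given also without it. So are the means of the 4 detected members and the member differences given with an SE for replicates 1 and 2. Counts for the lists of other cell types, and the differences named for list genes, use all 3 samples.

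Promoter sequence is shown for Runx3 and Hapln1, the measured members whose own probe sets disagreed with each other and whose windows hold a RUNX core motif. The letters are the 250 bases before a transcript start in RefSeq, build GRCm38.p6, on the plus strand, and capitals mark the RUNX core (TGTGGT, or ACCACA on the other strand), the site that Runt domain factors bind. RefSeq lists 2 starts for Runx3, the distal at chr4:135120395-135120644 and the proximal at chr4:135152295-135152544, while the window of Hapln1 is chr13:89540386-89540635.
Runx3 distal: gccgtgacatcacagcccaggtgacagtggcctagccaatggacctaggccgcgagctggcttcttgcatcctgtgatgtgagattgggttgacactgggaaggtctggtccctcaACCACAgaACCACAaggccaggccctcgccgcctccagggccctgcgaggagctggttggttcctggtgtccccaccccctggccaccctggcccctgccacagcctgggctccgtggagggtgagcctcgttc
Runx3 proximal: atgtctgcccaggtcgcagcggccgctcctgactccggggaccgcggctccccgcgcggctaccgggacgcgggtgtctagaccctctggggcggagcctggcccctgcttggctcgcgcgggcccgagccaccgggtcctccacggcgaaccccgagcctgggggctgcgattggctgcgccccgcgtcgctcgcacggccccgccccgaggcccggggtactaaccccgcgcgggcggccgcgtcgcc
Hapln1: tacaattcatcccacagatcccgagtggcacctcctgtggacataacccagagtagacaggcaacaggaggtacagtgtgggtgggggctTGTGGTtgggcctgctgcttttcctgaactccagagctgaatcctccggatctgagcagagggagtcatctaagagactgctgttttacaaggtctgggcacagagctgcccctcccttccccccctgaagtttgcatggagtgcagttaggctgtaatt

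The distal Runx3 window holds the core at 134 and 126 bases before the start, a close pair with the same orientation, and the proximal window holds none. In Hapln1 the core begins 160 bases before the start, and in the Matn1 window (not printed) 134 bases before it. Windows of 300 bases, running 50 bases past the start, were found for 6 of the 7 measured genes, all but Sp7. The RUNX core lay in those of 3 of these 6 genes (Hapln1, Matn1 and Runx3), and in those of 18.9% of 27025 genes in the table. A second motif, the GC box (GGGCGG, or CCGCCC on the other strand), which Sp family factors bind, lay in those of 4 of 6 genes (Acan, Alpl, Matn1 and Runx3) and of 38.2% of all genes. A match describes the letters only, and nothing here measured binding.

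Of the 12 probe sets 6 were above background in 3 of 3 samples, a share near that of all probe sets (48.0%). With each gene represented by its brightest probe set on average, Runx3, Sp7, Alpl and Hapln1 exceeded background in 3 of 3 samples, which is 4 of 7 measured members beside 60.5% of all 18193 genes. Acan was above it in 1 sample. Ibsp and Matn1 were above it in 0 of 3, as were 26.8% of all genes. The same 6 probe sets and 4 genes were counted without replicate 3, although leaving a sample out cannot lower such a count. Both shares lie near those of the whole array. Of the members, the osteoblast factor, the phosphatase, Runx3 and the link protein were read, while bone sialoprotein and matrilin were not. By probe set, 4 of 12 were below background in each sample (2 of Ibsp, 1 of Matn1 and 1 of Runx3), beside 35.5% of all probe sets.

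**Figure D1:**
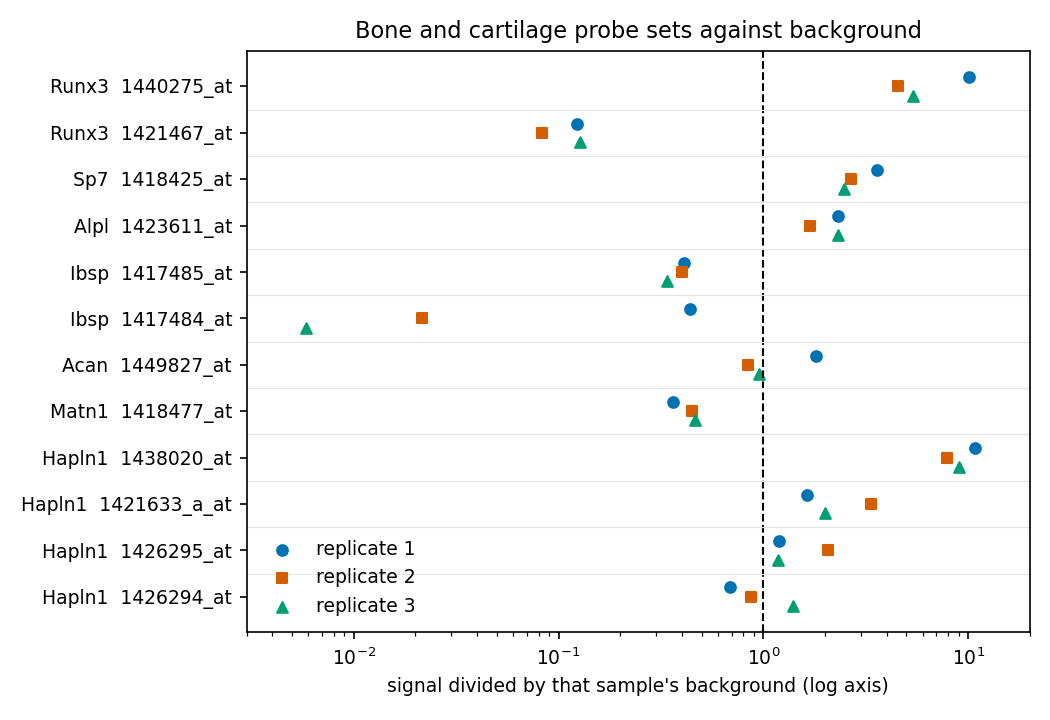
Signal of each bone and cartilage probe set divided by the background of the same sample (log axis), with 1 marker per replicate and a dashed line at background. All markers of the Runx3 probe set 1440275_at, of Sp7, of Alpl and of 3 Hapln1 probe sets lie to the right of the line, those of Acan straddle it, and those of Ibsp and Matn1 lie to its left.

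The regulators come first. Sp7 (osterix), the zinc finger factor without which mouse osteoblasts do not form, had signals of 488, 676 and 489 in replicates 1, 2 and 3 on its only probe set, 1418425_at. These were 3.59, 2.67 and 2.47 times background, and the mean was 551 ± 108 signal units (SD, n = 3). Replicate 2 was the highest on the deposited scale, and replicates 1 and 3 were nearly equal. Runx3, a Runt domain factor that acts together with Runx2 in maturing mouse chondrocytes and also works in sensory neurons and lymphocytes, read 1373, 1148 and 1067 in replicates 1, 2 and 3 on probe set 1440275_at (1196 ± 158, SD, n = 3). That is 10.1, 4.53 and 5.40 times background, with replicate 1 the highest.

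The second Runx3 probe set, 1421467_at, read 16.6, 20.9 and 25.2 in the same samples, below background in each of them. The 2 probe sets were designed on different database sequences, and where each lies in the transcript is not given in the sources used here. Such disagreement is common on this array, since 30.7% of the 9010 genes with several probe sets had one above background in 3 of 3 samples and another in 0 of 3. The Runx3 signal therefore rests on 1 of its 2 probe sets, and which of the 2 starts it reports was not tested.

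Runx3 is also known from other cells, and lists of these were read beside it. Of 8 measured genes of proprioceptive and sensory neurons 5 were above background in 3 of 3 samples (62.5%, beside 60.5% of all genes). The summed signals of the 8 were 54871, 51134 and 46757 in replicates 1, 2 and 3, nearly all from Isl1, which tubercle mesenchyme also expresses. The defining receptor Ntrk3 was below background in every sample (39.0, 142 and 168), as were the sensory neuron factor Pou4f1 and the synaptic gene Snap25. The other 4 genes above background in 3 of 3 samples, which neurons in general express, were Nefl (711, 1148 and 965), Elavl4 (453, 703 and 573), Stmn2 (709.6, 368 and 326) and Prph (184, 402 and 253). Of these, Stmn2 rested on 1 of its 2 probe sets and Prph on 1 of 4. Of 7 measured genes of T and NK lymphocytes 3 were above background in 3 of 3 samples (42.9%, beside 60.5% of all genes). The summed signals of the 7 were 1114, 1585 and 1245. The 3 were the coreceptor Cd8a (259, 442 and 255), the leukocyte protein Ptprcap (264, 351 and 232) and perforin, Prf1 (326, 461 and 507). Cd8a rested on 1 of its 5 probe sets, at 1.91, 1.75 and 1.29 times background. Prf1 rested on 1 of 2, at 2.40, 1.82 and 2.57 times background. Zbtb7b was above background in 2 samples. The T cell receptor partners Cd3e and Cd3d and the coreceptor Cd4 read at most 31.9 in any sample. The part of these cells in the Runx3 signal was not tested.

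Among the effectors, Alpl, the alkaline phosphatase that frees phosphate for mineral and is also made outside bone, read 316, 426 and 456 in replicates 1, 2 and 3 (399.7 ± 73.9, SD, n = 3). It lay at 2.33, 1.68 and 2.31 times background, lowest in replicate 2, where the background itself was highest. Ibsp (bone sialoprotein), which osteoblasts secrete into mineralizing matrix, was below background on both of its probe sets. Probe set 1417485_at read 55.6, 101 and 67.0, and 1417484_at read 59.8, 5.43 and 1.16. Both Ibsp probe sets stayed at or under 0.44 times background in all 3 samples, so the array sets only an upper limit on its level.

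Cartilage members ran from clear to unread. Acan, the large aggregating proteoglycan of cartilage, read 245, 214 and 189 in replicates 1, 2 and 3, at 1.81, 0.846 and 0.957 times background. Replicate 1 had both the highest Acan signal and the lowest background. With background at the 90th percentile of the receptor probe sets Acan was above it in 3 of 3 samples, so its call depends on that choice. Matn1, the matrilin of cartilage, read 48.9, 113 and 91.9, which was at most 0.465 times background in any sample.

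Hapln1, the link protein that fastens aggrecan or versican to hyaluronan, was the member with the most probe sets. Its probe set 1438020_at read 1461, 1999.5 and 1779 in replicates 1, 2 and 3 (1747 ± 270.5, SD, n = 3), or 10.8, 7.90 and 9.01 times background. On that probe set the samples were almost level. Probe set 1421633_a_at read 221, 853 and 393, and 1426295_at read 162, 525 and 233. Both were highest in replicate 2 and lowest in replicate 1, above background in each sample. Probe set 1426294_at read 93.1, 219.6 and 276, above background in replicate 3 alone, and was designed on the same database sequence as 1426295_at.

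After alignment of the samples on the probe sets above background in 3 of 3, the fold of replicate 2 over replicate 1 was 1.17 for 1438020_at, 3.29 for 1421633_a_at and 2.77 for 1426295_at. One gene thus gave a nearly flat and a more than 2-fold pattern across the same RNA. The ratio of 3′ to 5′ probe sets of the control transcripts differed between these samples, but not in the same order for each control. For β-actin it was 7.38, 2.21 and 4.42 in replicates 1, 2 and 3, and for pyruvate carboxylase 12.7, 2.61 and 3.91. The Gapdh control gave 21.5, 14.9 and 14.1, and the transferrin receptor control 4.36, 10.1 and 3.79, highest in replicate 2. The part of RNA length in the Hapln1 pattern was not tested.

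**Figure D2:**
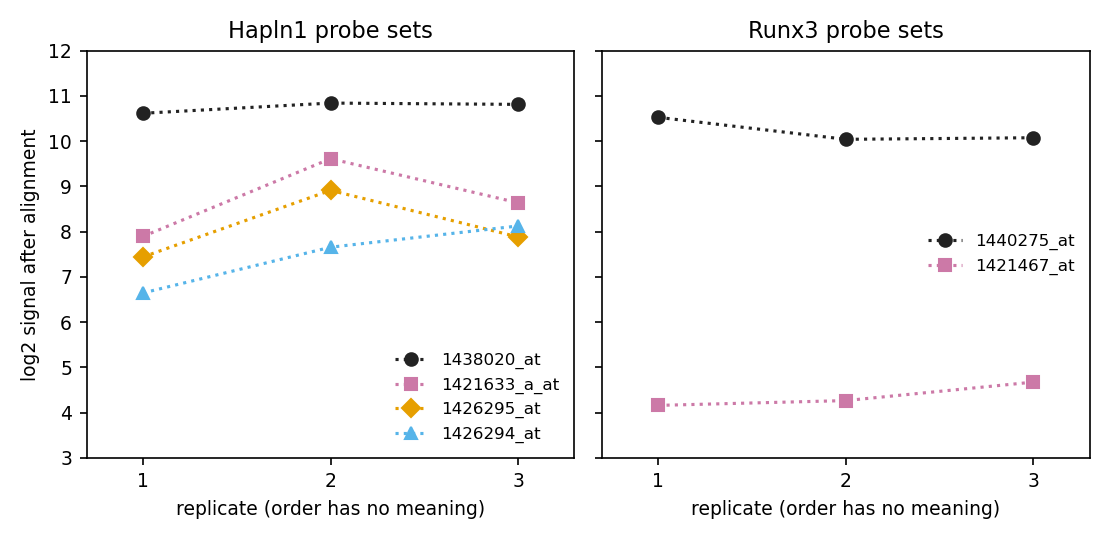
Log2 signal after alignment (vertical axis) of the 4 Hapln1 probe sets and the 2 Runx3 probe sets in the 3 replicates, 1 point per sample, with dotted lines that only join points of a probe set. The Hapln1 probe set 1438020_at is nearly level, 1421633_a_at and 1426295_at peak in replicate 2, and the Runx3 probe sets lie far apart in every sample.

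The spread between samples was measured as the SD of aligned log2 signal. It was 0.12 for Hapln1 on 1438020_at, 0.17 for Sp7, 0.22 for Alpl and 0.27 for Runx3 on 1440275_at (n = 3 each), all below the median of 0.364 over the 21612 probe sets above background in 3 of 3 samples. The Hapln1 probe sets 1421633_a_at and 1426295_at had SDs of 0.86 and 0.76. Thus 4 of the 6 member probe sets were below that median, 1 for each detected gene. Without replicate 2 the count was 2 of 6, and without replicate 3 it was 4. Mean signals without replicate 3 were 582 ± 133 for Sp7, 1260.0 ± 159 for Runx3 on 1440275_at, 371 ± 78.0 for Alpl and 1731 ± 380.5 for Hapln1 on 1438020_at (SD, n = 2 each).

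Whether the landmark went with a difference was asked with limma over the 29065 probe sets that exceeded background somewhere, 8 of them of these genes. Replicate 3 was set against replicates 1 and 2, which leaves 1 residual degree of freedom, the single sample being taken to vary as the pair does. Alpl read 456 in replicate 3, against 316 and 426 in replicates 1 and 2, a log2 difference of 0.34 ± 0.61 (SE). Sp7 read 489 in replicate 3, against 488 and 676, a difference of -0.21 ± 0.61. Runx3 on 1440275_at read 1067 in replicate 3, against 1373 and 1148, also -0.21 ± 0.64, and Hapln1 on 1438020_at 1779, against 1461 and 1999.5, at 0.08 ± 0.61. The deposited signal of replicate 3 lay between those of the other samples for Hapln1 and, by under 1 signal unit, for Sp7, which was lowest in replicate 3 after alignment. It lay above both for Alpl and below both for Runx3. Without replicate 1 the difference became 0.035 for Runx3 and -0.029 for Hapln1 on 1438020_at.

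The largest landmark difference was that of Hapln1 on 1426294_at, 0.98 ± 0.74, where only replicate 3 was above background. No probe set tested passed a limma Benjamini-Hochberg adjusted p of 0.05 in this contrast (0.0%), and 604 had an unadjusted p under 0.05, none of them of these genes (the smallest unadjusted p among the members was 0.259 and the smallest adjusted p 0.9999). Of the 8 member probe sets 3 were higher in replicate 3, with a median of -0.16, beside 53.7% higher and a median of 0.05 over all probe sets tested. With other settings limma called 1 (among probe sets above background in 3 of 3) or 86 (with alignment on all probe sets) in this contrast, none of them a member. The SEs of the members ran from 0.61 to 0.96 on the log2 scale. Limma draws them toward a variance shared over all probe sets tested, so they do not measure each probe set's own spread. Hepatocyte and skeletal muscle genes were also lower in replicate 3, with median log2 differences of -3.68 and -2.03 from the other samples. The landmark, the doubtful sex label and these tissue differences of replicate 3 cannot be told apart.

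Each other sample was fitted alone in the same way, although replicate 3, with its own landmark and sex-linked signals, is then among the samples it is set against. In replicate 1 the Hapln1 probe set 1421633_a_at read 221, against 853 and 393 in replicates 2 and 3, a log2 difference of -1.23 ± 0.62. Runx3 on 1440275_at read 1373 in replicate 1, against 1148 and 1067, a difference of 0.47 ± 0.47. In replicate 2 that Hapln1 probe set read 853, against 221 and 393 in replicates 1 and 3, a difference of 1.35 ± 0.57, and 1426295_at read 525, against 162 and 233, a difference of 1.25 ± 0.50. These 3 Hapln1 differences kept their direction with no alignment, with quantile normalization and with alignment on all probe sets. Without replicate 3, replicate 1 minus replicate 2 was -1.72 for 1421633_a_at and 0.49 for Runx3, and replicate 2 minus replicate 1 was 1.47 for 1426295_at, as differences with no test. None was called by limma (the smallest adjusted p among the members was 0.476 in replicate 1 and 0.870 in replicate 2), and 0.0% of probe sets were called in either contrast, where 3316 and 1467 had an unadjusted p under 0.05. That 0 depends on the settings: for replicate 1 limma called 511 among probe sets above background in 3 of 3, 557 with a variance trend and 144 with alignment on all probe sets, and for replicate 2 it called 251 with that alignment, with no member among them.

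**Figure D3:**
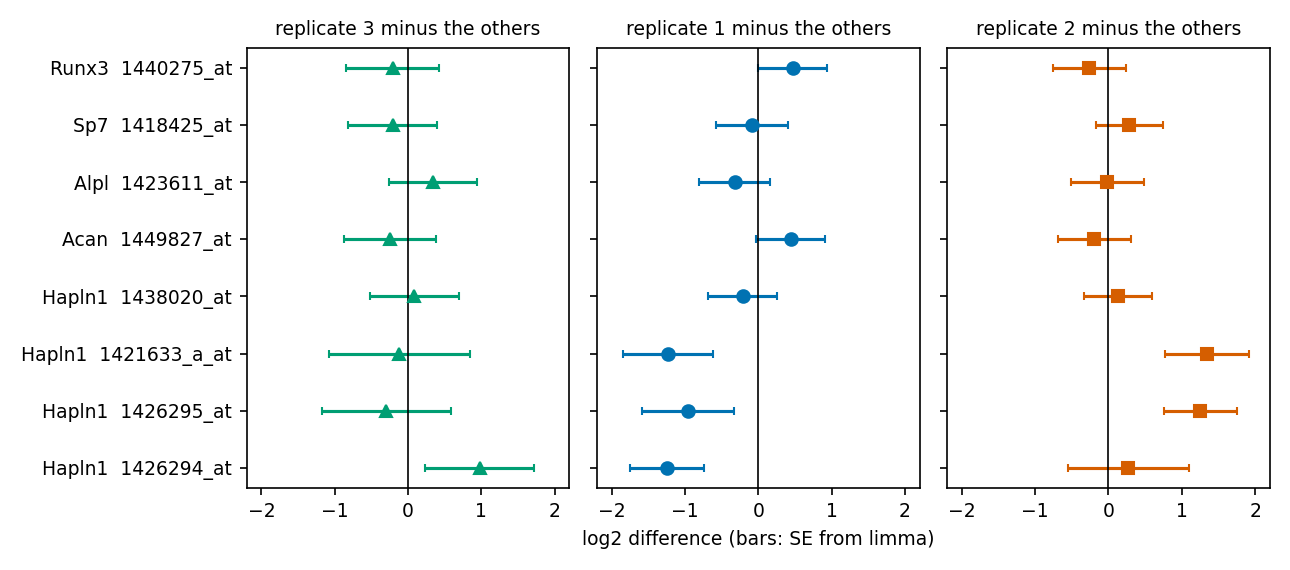
Log2 difference between 1 sample and the average of both others for the 8 bone and cartilage probe sets tested, with bars for the SE from limma. In replicate 3 the differences lie between -0.29 and 0.98. In replicate 1 every Hapln1 probe set lies left of 0, with 1438020_at the nearest to it (-0.21).

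The other genes of these programmes were read from 11 lists holding 116 genes, of which 109 were measured. Of these, 57 (52.3%) were above background in 3 of 3 samples, 34 in 0 and 18 in 1 or 2. Over all genes 60.5% were above it in 3 of 3 and 26.8% in 0, the shares to set beside each list count below. Some listed genes passed on only 1 of several probe sets. Among these were Dlx3, Msx2, Phex, Has2, Erg and Scx (1 of 2), and Ptch1, Slc20a1 and Smpd3 (1 of 3). Without replicate 3, 60 of the 109 were above background in both remaining samples. The count was then 4 of 17 for cartilage matrix, 10 of 14 for bone matrix and 4 of 7 for tendon and joint genes. It was unchanged for the other 8 lists. Leaving a sample out cannot lower such a count, so a rise tells nothing particular to replicate 3. The share of all genes without replicate 3 was not computed. Osteoblast regulators passed in 12 of 13 measured genes (92.3%, beside 60.5% of all genes). They included Cbfb, the partner that every Runx protein needs to bind DNA well (37265 ± 6156 signal units, SD, n = 3), the homeobox factors Dlx5 (5177 ± 1427) and Msx2 (7474 ± 2856), Dlx3 (299 ± 55.6) and Runx1, the blood member of the Runx family. Runx1 read 1114, 5901 and 1712 in replicates 1, 2 and 3 and Dlx6 62.4, 433 and 59.5, each higher in replicate 2 than in both others by over 1 on the log2 scale, as were 2.11% of all genes above background there. Hey1, a Notch target that restrains osteoblasts, was higher in replicate 1 by the same measure (9129.6, 5009 and 3304), as were 4.05% of all genes above background there. Since the list also holds genes that restrain osteoblasts or act in other cells, its count does not show an osteoblast programme.

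Bone matrix genes were above background in 9 of 14 (64.3%, beside 60.5% of all genes). The collagens Col1a1 (5746 ± 1487) and Col1a2 (39979 ± 4218) and Sparc (7395 ± 3719) are made by many connective tissues, and Mgp (1313 ± 434) and Phex (472 ± 154) by fewer. Postn, Bgn, Smpd3 and Ifitm5 of this list were also above background in 3 of 3 samples. Smpd3 read 520, 817 and 425 in replicates 1, 2 and 3. Ifitm5 read 282, 358 and 222, at 2.08, 1.42 and 1.13 times background. The genes of mineralizing bone and tooth Dmp1, Mepe and Dspp were above background in 0 of 3 samples, with signals of at most 83.6, 42.5 and 8.52. Fam20c, a kinase of secreted matrix proteins, read 384, 219 and 179.7 and exceeded background in replicate 1 alone. Mineralization enzymes and transporters were above background in 5 of 6, among them the pyrophosphate transporter Ank (1696 ± 511) and the phosphate transporter Slc20a1 (9639.7 ± 2829.6), with Abcc6 in 0. Of osteocyte genes Pdpn and Dkk1 were above background in 3 of 3 samples, and Sost and Fgf23, the secreted products that mark mature osteocytes, in 0.

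Most cartilage matrix genes were not read, with 3 of 17 above background in 3 of 3 samples and 10 in 0, beside 60.5% and 26.8% of all genes. Col9a3 (533 ± 111), Col11a1 (2111 ± 1022) and Fmod (8837 ± 3623) were the 3. The main cartilage collagen Col2a1 read 501, 473 and 187 in replicates 1, 2 and 3, which exceeds background in the first pair but not in replicate 3. Col9a2, Col11a2 and Comp were above background in 0 of 3. Col11a1 was lower in replicate 1 (999, 3008 and 2327 in replicates 1, 2 and 3), by over 1 on the log2 scale, as were 1.22% of all genes above background there. Fmod was lower in replicate 3 by the same measure (4656 in replicate 3, against 11047 and 10809), as were 0.884%.

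**Figure D4:**
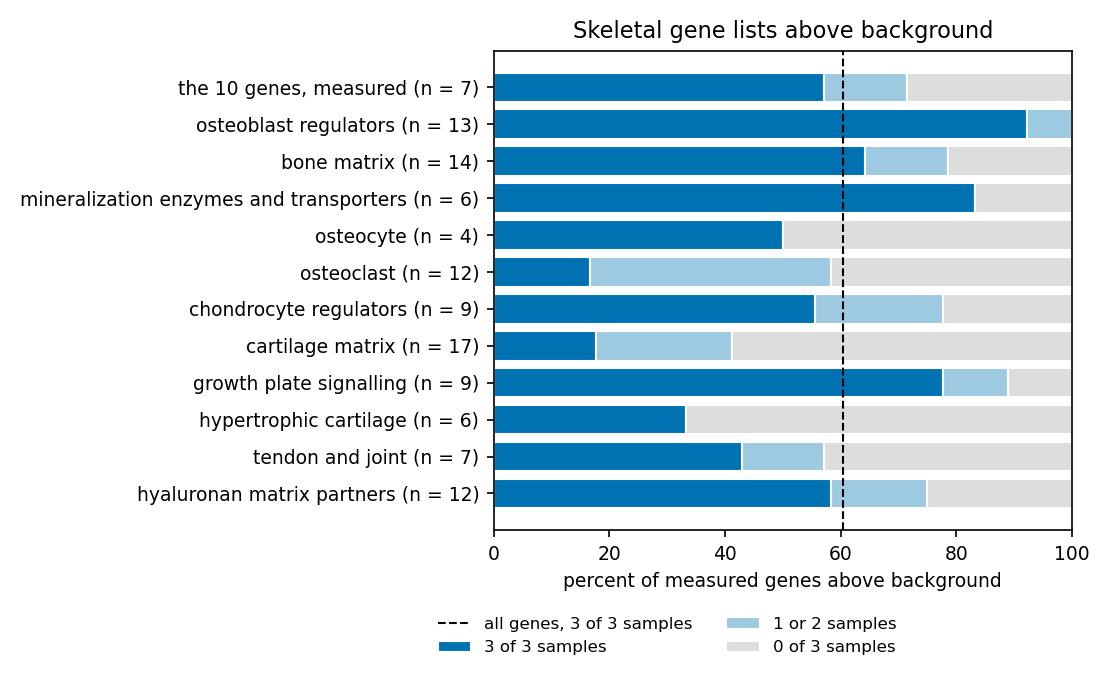
Percent of measured genes of each skeletal list above background in 3 of 3, in 1 or 2, or in 0 samples (horizontal axis), with a dashed line at the 60.5% of all genes above background in 3 of 3. Osteoblast regulators reach 92.3%, the 7 measured genes 57.1%, cartilage matrix 17.6% and osteoclast genes 16.7%.

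Chondrocyte regulators were above background in 5 of 9 genes (55.6%, beside 60.5% of all genes). Sox9, the master factor of cartilage, read 497, 1101 and 808 in replicates 1, 2 and 3, Sox6 1725, 1032 and 908, and Trps1 28436 ± 6302 (mean ± SD, n = 3). Nkx3-2 and Barx2 were above background in 0 of 3 samples. Sox5 (571, 229 and 272) and Foxa3 (344, 142 and 176) were higher in replicate 1 by over 1 on the log2 scale, as were 4.05% of all genes above background there. Zbtb20 differed between all samples by more than that (422, 2481 and 1086).

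Growth plate signalling was above background in 7 of 9 genes (77.8%, beside 60.5% of all genes), which include hedgehog genes that the tubercle uses for its own outgrowth. Pth1r, the receptor of Pthlh, read 5221, 5976 and 4353 in replicates 1, 2 and 3. Ihh, the hedgehog ligand of maturing cartilage, read 172, 245 and 166 and exceeded background in replicate 1 alone, whereas Ptch1, the hedgehog receptor and target, had 34527 ± 6797. Of hypertrophic cartilage genes Mef2c (10616 ± 2410.4) and Vegfa (1205 ± 654), both widely expressed, were above background in 3 of 3 samples, and Col10a1, Mmp13 and Alox15 in 0. The collagen Col10a1, the defining product of hypertrophic chondrocytes, read 7.38, 17.1 and 18.6.

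Genes that work with Hapln1 and Acan at hyaluronan were above background in 7 of 12 (58.3%, beside 60.5% of all genes). Vcan, the proteoglycan that the link protein binds in soft mesenchyme, had 50210.0 ± 4989, the hyaluronan synthase Has2 866 ± 210.0 and the related link protein Hapln3 396 ± 106. Has3 read 1618 in replicate 3, against 628 and 646 in replicates 1 and 2, higher by over 1 on the log2 scale, as were 1.58% of genes above background there. The hyaluronan receptor Cd44 was higher in replicate 2 (1294, 3920.4 and 1668 in replicates 1, 2 and 3) by the same measure. Has1, Hapln2 and the brain proteoglycan Bcan were above background in 0 of 3 samples.

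Cells that remodel bone and neighbours of cartilage were also listed. Osteoclast genes were above background in 2 of 12, Acp5 (833, 390.1 and 251) and Ctsk (1533 ± 239), an enzyme that fibroblasts also make. Another 5 were above it in 1 or 2 samples, and 5 in 0, among them Calcr, Dcstamp and Ocstamp. Acp5 and Atp6v0d2 (192, 53.0 and 79.2) were higher in replicate 1 by over 1 on the log2 scale, as were 4.05% of all genes above background there. Atp6v0d2 exceeded background in replicate 1 alone. The summed signal of 12 macrophage genes was also highest there, at 8696, 5644 and 6322. Of tendon and joint genes 3 of 7 were above background in 3 of 3 samples, namely the tendon factors Scx (208, 651 and 649) and Mkx (4686 ± 799) and Erg, which endothelium also expresses, and the joint genes Gdf5, Prg4 and Chrdl2 in 0.

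Genes of other tissues differed between the samples. In replicate 1 the median log2 difference from the other samples was 3.77 over 8 hepatocyte genes and 1.87 over 15 skeletal muscle genes, and in replicate 3 -3.68 and -2.03. Summed hepatocyte signals were 116034, 52559 and 9266 in replicates 1, 2 and 3, and 4 of 8 were above background in 3 of 3 samples, while summed skeletal muscle signals were 29189.5, 9312 and 3912 with 6 of 15. The 11 epithelial genes, all above background in 3 of 3, were highest in replicate 1 after alignment in 11 of 11 cases (median 0.50), though not in deposited signal for Krt14 and Cdh1. Over the 7 measured members the median was -0.21 in replicate 1, 0.13 in replicate 2 and -0.13 in replicate 3, beside 0.21, -0.15 and 0.01 over all genes. The part of these tissues in the values of the members, among which Acan and Runx3 were highest in replicate 1, was not tested.

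**Figure D5:**
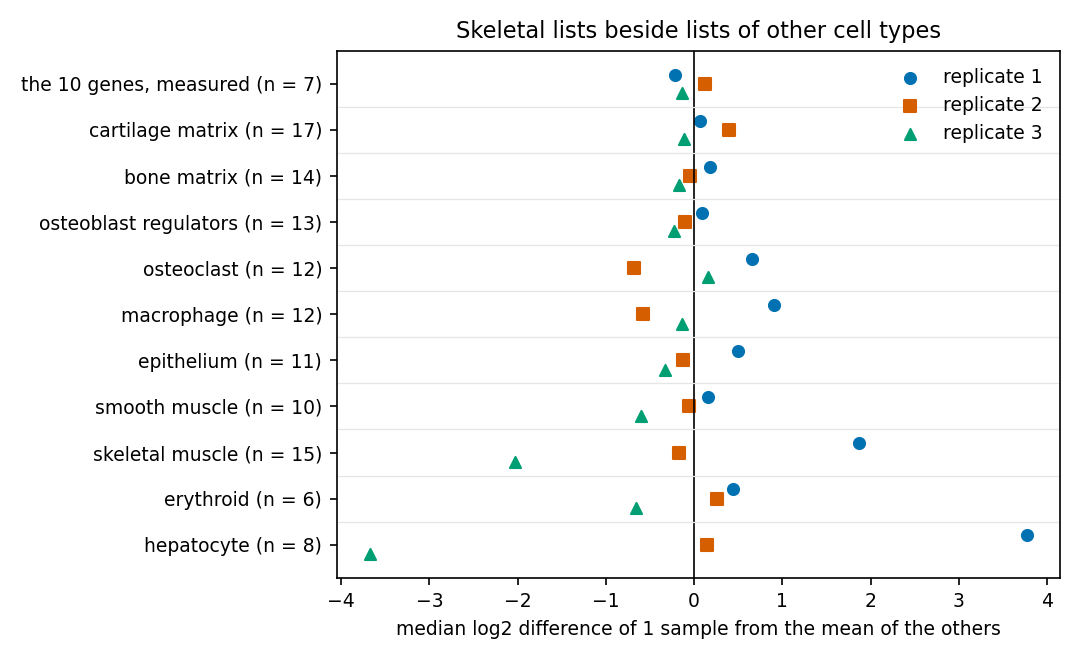
Median log2 difference between each sample and the average of both others (horizontal axis) for the 7 measured genes, 4 skeletal lists and 6 lists of other cell types, 1 marker per replicate. Hepatocyte and skeletal muscle genes spread from below -2 to above 1.8, and the 7 genes stay between -0.21 and 0.13.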

How the data were processed

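RNA of 3 genital tubercles was amplified in 2 rounds, labelled with biotin and hybridised to 1 array each, per the labels' protocols. Each probe set has 1 linear intensity per sample in the deposited table, made by the authors with GCOS, per the submitters' processing notes, with version, algorithm and settings not given in the sources used here. A mean trimmed by 2% at either end came to 1500.0 for each array, so the intensities were scaled before deposit. Amplification from 3′ ends can lower signals of probe sets far from that end.

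Of 45101 probe sets 64 controls were set aside. In the platform annotation 34945 had 1 symbol, 932 several and 9160 none, and 34741 were matched by Entrez identifier to the RefSeq table of GRCm38.p6, where 0 symbols changed. Background was the 95th percentile of 81 receptor probe sets. Signals were floored at 1, log2 transformed and aligned on the median of probe sets above background in 3 of 3 samples, since those medians differed by 0.23, over the limit of 0.1. Printed signals are as deposited; differences, folds and SDs are after alignment. Each gene is represented by its brightest probe set on average; probe sets ending in _x_at, _s_at or _a_at can also match related transcripts. Contrasts used limma 3.58.1 in R 4.3.3 (lmFit, eBayes, two-sided, Benjamini-Hochberg). A run on simulated data checked only that the median estimate of added differences was recovered, not how often limma calls a probe set. Every column was matched to a sample, 0 were left over, and at most 10 values were identical in any pair of samples.

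The members and lists were chosen with earlier results of these data known, and the tubercle list was added after the data were seen. All members and probe sets are named. From each list the text names genes in list order, up to 5 above background in 3 of 3 samples and up to 3 in 0, and up to 4 in which 1 sample above background differs from both others by over 1 on the log2 scale; others named were chosen after their values were seen. Likeness to a pattern was not computed, since 3 samples are too few. Listed genes with no probe set of their own were not analysed here. The number of arrays limits the precision.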

Additional observations from a re-analysis of the deposited data

How the results depend on the processing

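The counts of member probe sets (6) and member genes (4) above background stayed within 1.5 times at the 90th and 99th percentile of the receptor probe sets (7 and 5 probe sets, 5 and 4 genes) and with each replicate left out. So did the 57 skeletal list genes, between 55 and 63. A count above background cannot fall when a replicate is left out. The shares of all probe sets and genes at these other settings were not computed. Without 1 replicate, 2 to 4 of the 6 member probe sets had an SD below the median, the 2 being without replicate 2. Limma called 0 probe sets in each contrast. Limited to probe sets that exceeded background in each sample, it called 1 in the landmark contrast and 511 for replicate 1. With a variance trend it called 557 for replicate 1. With alignment on the median over the whole array, added after seeing the data, it called 86, 144 and 251 for the landmark contrast and replicates 1 and 2, and the median difference of all probe sets tested in replicate 1 became 0.48, from 0.08. None of these calls was a member, and the cause was not tested.

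Of 72 member differences recomputed under 3 other scalings 61 kept their direction and 11 reversed; the other settings leave these differences equal by construction. Under alignment on all probe sets Hapln1 on 1438020_at became -0.0021 in the landmark contrast, 0.19 in replicate 1 and -0.19 in replicate 2, Sp7 0.32 in replicate 1 and -0.029 in replicate 2, Alpl 0.077 in replicate 1 and Hapln1 on 1426294_at -0.044 in replicate 2. With quantile normalization Sp7 became 0.17 and Alpl 0.021 in replicate 1, and Hapln1 on 1426294_at -0.054 in replicate 2. With no alignment Alpl became 0.17 in replicate 2. No paired analysis was possible because the samples form 1 group. Leaving out 1 replicate leaves no residual degree of freedom in a contrast, so those 48 differences have no test, and 8 of them turned sign. Each is a difference between a pair of samples and appears again with the opposite sign in another contrast. The main difference is the mean of its pair differences, so they cannot all turn, and the share that turned is limited by construction. In the landmark contrast Runx3 became 0.035 and Hapln1 on 1438020_at -0.029 without replicate 1, and Hapln1 became 0.74 on 1421633_a_at and 0.44 on 1426295_at without replicate 2. Sp7 in replicate 1 became 0.085 without replicate 2. In replicate 2 Alpl became 0.20 without replicate 3, and Acan 0.039 and Hapln1 on 1426294_at -0.47 without replicate 1.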
